A study of Mus musculus with 2 samples.

Results

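The genes described here encode cytosolic translation initiation factors (eIFs) and elongation factors (eEFs), with their direct regulators and modifying enzymes that carry the same symbols. Members were chosen by symbol alone, as genes whose name starts with Eif and a digit from 1 to 6 or with Eef1 or Eef2, leaving out the eIF2 kinases, the sex-linked *Eif2s3* genes and pseudogenes. This gave 55 of the 19938 genes that the array annotation names singly, and a gene with several probe sets was read from the one whose mean signal was highest. Microarrays were run on sorted live CD3+CD4+ T cells from the pancreatic lymph nodes (PLN) of 8-week-old NOD mice that carry the transgenic BDC T cell receptor, 48 hours after nondepleting anti-CD4 (ND αCD4, clone YTS177) or isotype control Ab (clone 2A3). The labels and the methods give different numbers for the BDC clone, so it is called BDC here without one. BDC mice are known for CD4+ T cells that mostly carry this receptor, directed at a β cell antigen. The label of the isotype control array gives a dose of 1 mg, while the methods state a higher dose range for 2A3 than for YTS177. The methods state that PLN of 3 mice were pooled for sorting, and 1 array was run per condition.

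Translation starts when a small ribosomal subunit carrying eIF2, eIF3, eIF1 and eIF1A is recruited to the capped mRNA by the eIF4 proteins and scans to a start codon. eIF5 and eIF5B then release the factors and join the large subunit, eEF1A delivers aminoacyl-tRNAs and eEF2 moves the ribosome along. Resting T cells hold translation low, and signals from the T cell receptor raise it as the cells grow and divide.

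The array signal is a log2 value, with a range of 2.52 to 14.70 over all probe sets and a median of 8.15 in both arrays. Signals of different genes come from different probes and are not compared here. Background was set by 1210 probe sets of odorant and pheromone receptors, at their 95th percentile (7.56 in the ND αCD4 array and 7.64 in the isotype control array), and a gene above it on either array counts as detected. All ratios are given on the log2 scale as the ND αCD4 value minus the isotype control value. With 1 array per condition no test was possible, no difference has a replicate check, and precision is limited by the number of arrays. As a yardstick for measurement error only, log2 ratios of single probe sets spread around the mean of their gene with a pooled SD of 0.09. It came from 550 genes with 2 probe sets and is called the SD between probe sets here. The difference between 2 probe sets of a gene spreads more widely than this, and differences between mice are not covered. The T cell markers checked were all detected, and *Cd4*, the one among them that CD8 T cells lack, was at 13.48 in the ND αCD4 array and 13.38 in the isotype control array. Markers of CD8 T cells were also above background in both arrays, with *Cd8a* at 10.39 after ND αCD4 and 9.67 after isotype control Ab and *Cd8b1* at 11.83 after ND αCD4 and 11.38 after isotype control Ab. All 9 measured cell cycle genes had lower signals after ND αCD4, each by at least 1.5-fold as measured (*Birc5* and *Bub1* were not above background after ND αCD4), with a summed linear signal of 4107 in the ND αCD4 array and 8860 in the isotype control array. The log2 ratio was 0.72 for *Cd8a* and 0.45 for *Cd8b1*. Of 4 natural killer cell markers, *Klrd1* alone was detected, at 8.19 after ND αCD4 and, below background, 7.34 after isotype control Ab, at least 1.46-fold higher. The 4 measured B cell markers had a median of 0.12. Of 7 measured genes listed for handling stress, 6 had log2 ratios above 0, led by *Jun* at 1.66, and *Egr1* was at -0.25. Among the 6, *Hspa1a* (0.05) and *Ier2* (0.09) were within the SD between probe sets. What part handling had in these values was not tested. In a sorted pool a different share of cells and a different amount of mRNA per cell cannot be told apart.

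Translation factor genes had slightly lower signals after ND αCD4, and none reached 1.5-fold in either direction. Of the 55 members, 53 were detected. Among these, 0 were at least 1.5-fold lower, against 1.01% of all detected genes, and 0 were at least 1.5-fold higher, against 0.212%. A log2 ratio below 0 was found in 41 of 53 members (77.4%), against 52.7% of the 13222 detected genes, and the median was -0.09 for members and -0.01 for all detected genes. Differences larger than the SD between probe sets pointed down in 26 members (49.1%, against 26.5% of all detected genes) and up in 4 members (7.55%, against 20% of all detected genes). At a smaller size of 1.2-fold, 5 members were lower (9.43%, against 5.79% of all detected genes) and 0 were higher (against 2.85%). The shift thus lay in many small differences and few larger ones.

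**Figure D1:**
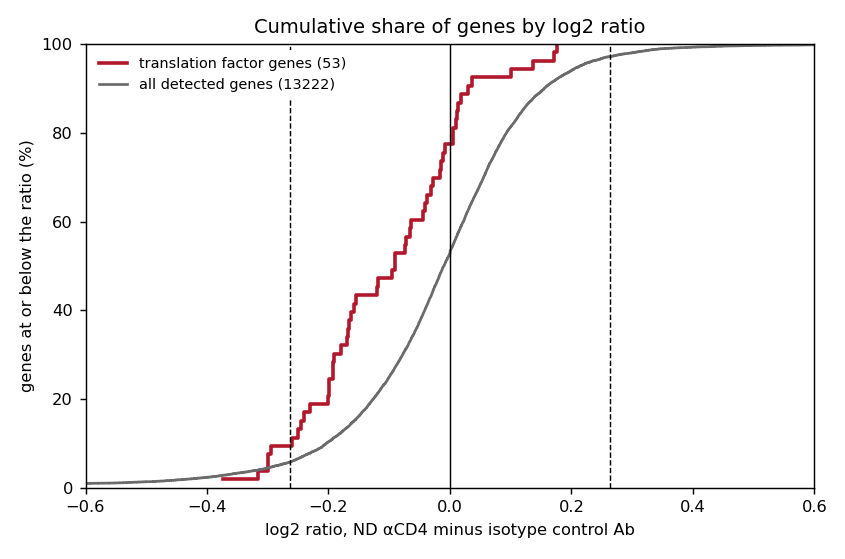
Cumulative share of genes (%, vertical axis) by log2 ratio, ND αCD4 minus isotype control (horizontal axis, cropped at 0.6 on either side), for the 53 detected translation factor genes (red) and all 13222 detected genes (gray), with dashed lines at 1.2-fold. The red curve lies to the left over most of its range, passing 0 at 77.4% where the gray curve passes it at 52.7%.

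The 5 members at least 1.2-fold lower came from 5 different factors. *Eif5a*, a factor that carries the amino acid hypusine and helps stalled ribosomes to elongate and terminate, had a signal of 12.58 in the ND αCD4 array and 12.96 in the isotype control array, 1.30-fold lower. *Eif3b*, a scaffold subunit of eIF3, was at 11.95 after ND αCD4 and 12.27 after isotype control Ab, 1.25-fold lower. *Eif4e*, which binds the mRNA cap, was at 10.36 and 10.66 in the ND αCD4 and isotype control arrays, 1.23-fold lower in the probe set used, but its other probe sets did not share this direction, as described further on. *Eif2b3*, the γ subunit of the exchange factor that recharges eIF2 with GTP, was at 10.07 after ND αCD4 and 10.37 after isotype control Ab, 1.23-fold lower. *Eif1ax*, one of the genes of eIF1A, which acts in scanning, was at 10.58 after ND αCD4 and 10.87 after isotype control Ab, also 1.23-fold lower. Just short of this size was *Eef1akmt1*, a methyltransferase of eEF1A, with a log2 ratio of -0.26.

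**Figure D2:**
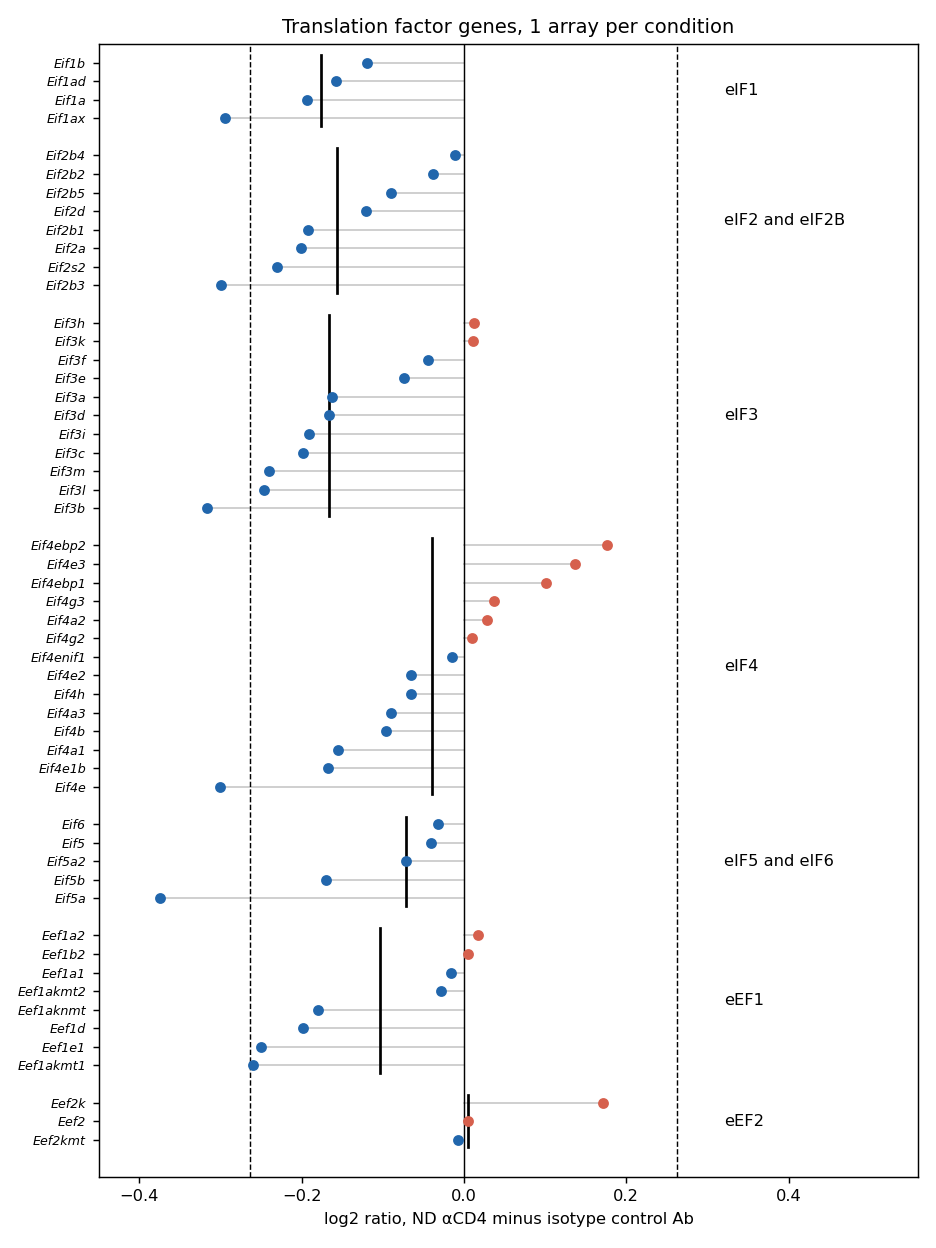
Log2 ratio (ND αCD4 minus isotype control, horizontal axis) of each detected member, 1 point per gene in blue below 0 and red above 0, grouped by factor with the group median as a black bar and 1.2-fold as dashed lines. As deposited, the measured genes of the eIF1, eIF2 and eIF2B, and eIF5 and eIF6 groups lie below 0 (Eif2b4, at -0.01, changes sign with the scaling), while eIF4 spans -0.30 (Eif4e, whose direction depends on the probe set) to 0.18.

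The measured genes of the factors that find the start codon and bring the initiator tRNA had log2 ratios below 0 as deposited, though *Eif2b4* changed sign with the scaling. *Eif1* and, besides *Eif2s2*, the eIF2 subunit genes were not analysed here. The 4 members of the eIF1 group had a median log2 ratio of -0.18. Besides *Eif1ax*, these were *Eif1a*, a second eIF1A gene whose near-identical copies share other probe sets, with 9.83 after ND αCD4 and 10.03 after isotype control Ab. *Eif1ad*, which contains an eIF1A-like domain, had a log2 ratio of -0.16, and *Eif1b*, a close relative of the start codon factor eIF1, had one of -0.12. The 8 members of the eIF2 and eIF2B group had a median of -0.16. *Eif2s2*, the β subunit of eIF2, which carries the initiator tRNA, was at 10.50 in the ND αCD4 array and 10.73 in the isotype control array, 1.17-fold lower. *Eif2a*, a separate factor for alternative start sites, was at 10.79 after ND αCD4 and 10.99 after isotype control Ab, a log2 ratio of -0.20. *Eif2d*, which acts in reinitiation and ribosome recycling, had a log2 ratio of -0.12. The 5 subunits of eIF2B differed among themselves. *Eif2b3* (-0.30) and *Eif2b1* (-0.19) had the lowest log2 ratios, *Eif2b5*, the catalytic subunit, was at -0.09, and *Eif2b2* (-0.04) and *Eif2b4* (-0.01) were within the SD between probe sets.

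eIF3 is the largest initiation factor, a complex of many subunits that binds the small ribosomal subunit. Of its 11 measured subunit genes, 9 had log2 ratios below 0 (81.8%, against 52.7% of all detected genes) and 2 above 0. The median of the 11 was -0.17, with a range of -0.32 to 0.01. Next to *Eif3b* stood *Eif3l* (11.88 after ND αCD4 and 12.12 after isotype control Ab, 1.19-fold lower) and *Eif3m* (11.21 after ND αCD4 and 11.45 after isotype control Ab, 1.18-fold lower). *Eif3c*, *Eif3i*, *Eif3d* and *Eif3a*, which include the core of the complex, had log2 ratios of -0.20, -0.19, -0.17 and -0.16. The 4 remaining subunit genes were close to 0. *Eif3f* was at 13.26 after ND αCD4 and 13.31 after isotype control Ab, *Eif3h* at 13.19 after ND αCD4 and 13.18 after isotype control Ab, and *Eif3k* at 12.21 after ND αCD4 and 12.20 after isotype control Ab. *Eif3e* had a log2 ratio of -0.07. As measured with 1 array per condition, genes of 1 complex were not lower to the same extent. *Eif3f* and *Eif3h* have signals from 13 upward, where log2 ratios of all detected genes spread less. Their SD there was 0.09, against 0.18 for signals between 9 and 11. What part signal height has in these values was not tested.

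The eIF4 genes, which act at the mRNA cap, had log2 ratios on both sides of 0. Of 14 detected members, 8 were below 0 (57.1%, close to the 52.7% of all detected genes) and 6 above 0, with a median of -0.04. With own-chromosome probe sets, which turn the sign of *Eif4e* as described further on, 7 were below and 7 above 0, with a median of -0.002. The helicase gene *Eif4a1* was at 13.44 in the ND αCD4 array and 13.60 in the isotype control array, 1.11-fold lower, while its close relative *Eif4a2* was at 11.95 after ND αCD4 and 11.92 after isotype control Ab. *Eif4a3*, which belongs to the exon junction complex that marks spliced mRNA, had a log2 ratio of -0.09. The helicase cofactors *Eif4b* and *Eif4h* had log2 ratios of -0.10 and -0.07. The measured scaffold genes were near 0, with *Eif4g2* (12.64 after ND αCD4 and 12.62 after isotype control Ab) and *Eif4g3* (11.60 after ND αCD4 and 11.57 after isotype control Ab). Of the cap-binding relatives, *Eif4e2*, which represses translation of some mRNAs, had a log2 ratio of -0.06, within the SD between probe sets, and *Eif4e3* one of 0.14. *Eif4e1b*, known from oocytes, was low but above background in both arrays (8.54 after ND αCD4 and 8.71 after isotype control Ab). *Eif4enif1*, which carries eIF4E into the nucleus, had a log2 ratio of -0.01.

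In the probe sets used, the highest log2 ratios belonged to *Eif4ebp2* and *Eef2k*, both inhibitors of translation, although the place of *Eef2k* rests on 1 of its 2 probe sets. *Eif4ebp2*, which sequesters eIF4E when mTORC1 is inactive, was at 12.40 in the ND αCD4 array and 12.22 in the isotype control array, 1.13-fold higher. *Eif4ebp1*, of the same family, was at 9.35 after ND αCD4 and 9.25 after isotype control Ab, 1.07-fold higher. *Eef2k*, the kinase that inactivates eEF2, was at 9.19 after ND αCD4 and 9.01 after isotype control Ab, 1.13-fold higher, but its second probe set had a log2 ratio of -0.03 and the mean of both was 0.07. In the probe sets used, the 4 members above 0 by more than the SD between probe sets were these 3 genes and *Eif4e3*, which was at 9.77 after ND αCD4 and 9.64 after isotype control Ab. The grouping of *Eif4ebp1*, *Eif4ebp2* and *Eef2k* was made after their values were seen, and no ratio among them reached 1.2-fold. It leaves out other members with a repressing or blocking role. Of these, *Eif4e2* and *Eif6* had log2 ratios of -0.06 and -0.03, both within the SD between probe sets.

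**Figure D3:**
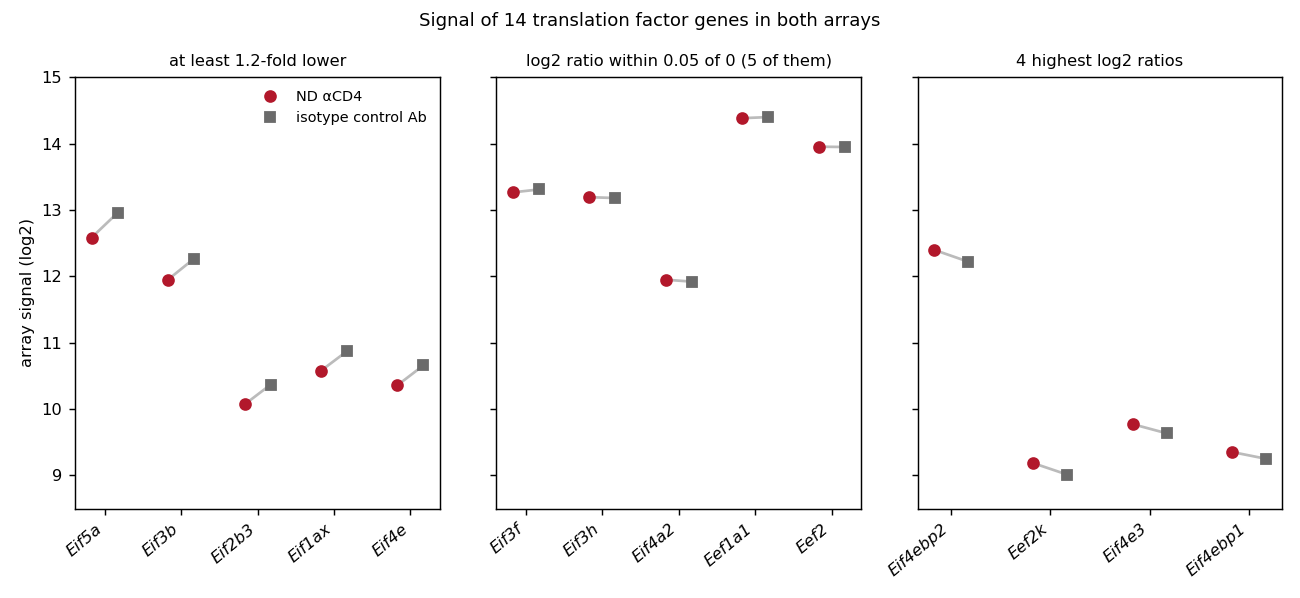
Array signal (log2, vertical axis) of 14 members in the ND αCD4 array (red circles) and the isotype control array (gray squares), 1 array each, a gray line connecting the pair of each gene. The 5 genes on the left are lower after ND αCD4 by at least 1.2-fold, the 5 in the middle differ by less than 0.05 between arrays, and the 4 on the right have the highest log2 ratios in the probe sets used, up to 0.18 (Eif4e and Eef2k have other probe sets of the opposite direction).

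The 5 members of the eIF5 and eIF6 group were also below 0, with a median of -0.07. *Eif5a* and *Eif5b* were lower by more than the SD between probe sets. *Eif5b*, the GTPase of subunit joining, was at 9.50 after ND αCD4 and 9.67 after isotype control Ab, a log2 ratio of -0.17. *Eif5*, which triggers GTP hydrolysis on eIF2, was at 12.07 after ND αCD4 and 12.11 after isotype control Ab. *Eif6*, which keeps large subunits from joining too early, was at 12.35 after ND αCD4 and 12.38 after isotype control Ab. *Eif5a2*, the second eIF5A gene, had a log2 ratio of -0.07, against -0.37 for *Eif5a*.

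Elongation factor subunits were near 0 with 1 exception, and of the 6 detected enzymes and partners named after them, 3 were lower by more than the SD between probe sets. *Eef1a1* was at 14.38 in the ND αCD4 array and 14.40 in the isotype control array. *Eef2* was at 13.95 in both arrays, with a log2 ratio of 0.005. *Eef1b2*, a nucleotide exchange subunit of eEF1B, was at 13.17 in both arrays, also with 0.005. *Eef1a2*, the form of muscle and neurons, was at 8.83 after ND αCD4 and 8.81 after isotype control Ab. The exception was *Eef1d*, another exchange subunit, at 9.90 after ND αCD4 and 10.09 after isotype control Ab, 1.15-fold lower. *Eef1e1*, a scaffold of the complex of aminoacyl-tRNA synthetases, was at 10.60 after ND αCD4 and 10.85 after isotype control Ab, 1.19-fold lower. Besides *Eef1akmt1* (9.75 after ND αCD4 and 10.01 after isotype control Ab), the methyltransferase genes were *Eef1aknmt* with a log2 ratio of -0.18, *Eef1akmt2* with -0.03 and *Eef2kmt*, which modifies eEF2, with -0.01, its sign changing with the scaling. *Eef2k*, described above, was at 0.17 in the probe set used. Over all 42 detected genes with Eif symbols the median log2 ratio was -0.11 and 34 were below 0 (81%, against 52.7% of all detected genes). Over the 11 detected genes with Eef symbols, enzymes and partners included, the median was -0.02. Of these 11, 7 were below 0 (63.6%, against the same 52.7%). The difference between both sets was not tested.

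Several of the genes near 0 encode mRNAs known from human cells to begin with a 5′-terminal oligopyrimidine (TOP) tract, through which mTORC1 controls their translation. The set described here was *Eef1a1*, *Eef1b2*, *Eef1d*, *Eef2*, *Eif3e*, *Eif3f* and *Eif3h*. These 7 were put together after the values were seen, and the set may leave out other members with such a tract. Their log2 ratios ran from -0.20 (*Eef1d*) to 0.01 (*Eif3h*) with a median of -0.02. Of the 7, 4 were below 0 (57.1%, against 52.7% of all detected genes). An array measures mRNA amount and not translation. Signal height moved with this result. Of the 6 members with a mean signal from 13 upward, 5 belong to this set and the other is *Eif4a1*. Over all 158 detected genes in that range the SD of log2 ratios was 0.09, against 0.18 over the 5446 genes between 9 and 11. What part signal height has in the values near 0 was not tested.

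Probe set choice mattered for *Eif4e*. The numbers of probe sets on this array follow the genome, so that the 10 named neighbors on either side place each probe set on a chromosome. By this measure the probe set used was numbered on the gene's own chromosome for 50 members and on another chromosome for 5, namely *Eif5a*, *Eif4e*, *Eif3m*, *Eif2s2* and *Eif4a1*. Each of these also had a probe set numbered on its own chromosome. For *Eif4e* (chromosome 3) the probe set used lay among those of chromosome X. Its probe sets on chromosome 3 were at 9.66 in the ND αCD4 array and 9.51 in the isotype control array, a log2 ratio of 0.15, and at 8.26 and 8.25 in the ND αCD4 and isotype control arrays, a log2 ratio of 0.01. So the direction of *Eif4e* depended on the probe set, and no call is made for it. For *Eif5a* (chromosome 11) the probe set used lay among those of chromosome 5, where RefSeq lists the pseudogene *Eif5al3-ps*, and the one on chromosome 11 was at 11.19 after ND αCD4 and 11.47 after isotype control Ab, 1.21-fold lower. *Eif2s2* was 1.21-fold lower on its own chromosome, *Eif3m* 1.14-fold and *Eif4a1* 1.09-fold. With the own-chromosome probe sets, a choice made after seeing the data, 5 members were again at least 1.2-fold lower, of which 4 were shared, with *Eif2s2* in place of *Eif4e*. The median of members stayed at -0.09.

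**Figure D4:**
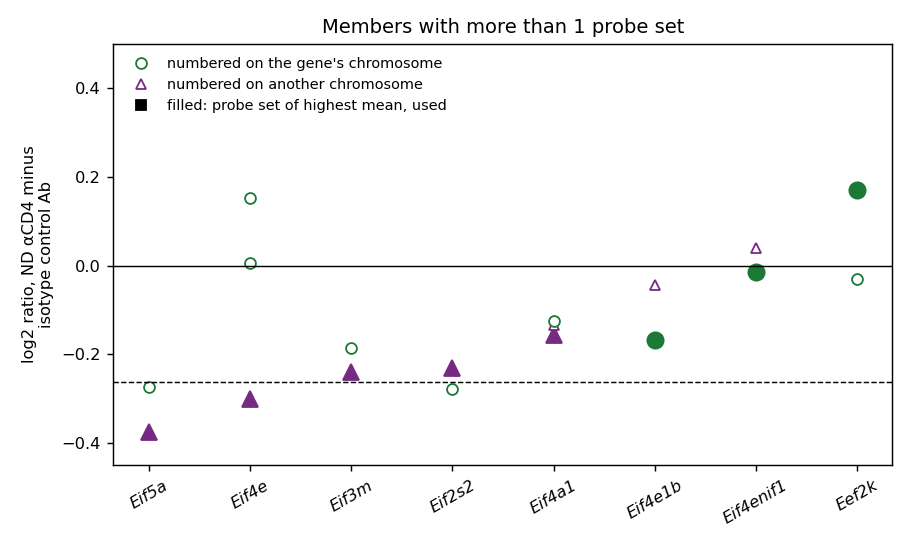
Log2 ratio (ND αCD4 minus isotype control, vertical axis) of every probe set of the 8 members with more than 1, as green circles where numbered on the gene's own chromosome and purple triangles elsewhere, filled where the probe set has the highest mean and was used. For Eif4e the filled triangle lies at -0.30 and the open circles at 0.15 and 0.01, while all probe sets of Eif5a, Eif3m, Eif2s2 and Eif4a1 lie below 0.

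Promoters of these genes were examined for the E-box CACGTG, a site that Myc and Max can bind, though not they alone. Myc is known to raise genes of protein synthesis in activated T cells. The motif reads alike on both strands. RefSeq promoter sequences (GRCm38.p6, 250 bases before to 50 after each annotated start) matched 41 of the 53 detected members, and 12 of these (29.3%) held the motif in at least 1 promoter, against 11.3% of the 10482 detected genes with a promoter and 8.09% of all 27025 genes. Counted per promoter, 25.5% of 55 promoters of members held it, against 9.69% for detected genes and 7.15% of all 32851. Genes with more annotated starts had more chances to match. The 12 members with the motif had a median log2 ratio of -0.10 and ranged from -0.37 to 0.17, and the 29 without it had a median of -0.09. Both medians rest on the probe sets used, including that of *Eif4e*, whose direction depends on the probe set. They were not computed with other probe sets, and no order is read from them. Ratios below are of the probe sets used. For *Eif5a* and *Eif4a1* these are numbered on other chromosomes, and their own-chromosome probe sets had log2 ratios of -0.27 and -0.12. *Eef2k* was above 0 in 1 of its 2 probe sets, the other being at -0.03. The following stretches upstream of the start are shown because they carry the motif (in capitals) in members below 0, near 0 and, for *Eef2k* in the probe set used, above 0.
Eif5a, chr11:69921431-69921484, minus strand, log2 ratio -0.37: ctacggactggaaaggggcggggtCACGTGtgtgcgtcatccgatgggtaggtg
Eif4e, chr3:138527180-138527233, plus strand, direction dependent on the probe set: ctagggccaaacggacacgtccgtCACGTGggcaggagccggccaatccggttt
Eif4a1, chr11:69672583-69672636, minus strand, log2 ratio -0.16: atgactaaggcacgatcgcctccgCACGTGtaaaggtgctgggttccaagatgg
Eif3f, chr7:108934323-108934376, plus strand, log2 ratio -0.04: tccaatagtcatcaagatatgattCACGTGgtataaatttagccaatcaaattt
Eef2, chr10:81176564-81176617, plus strand, log2 ratio 0.005: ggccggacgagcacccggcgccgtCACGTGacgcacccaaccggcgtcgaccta
Eef2k, chr7:120842776-120842829, plus strand, log2 ratio 0.17: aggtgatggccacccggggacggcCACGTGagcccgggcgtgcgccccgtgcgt
The motif began 74 bases before the start in *Eif5a*, 64 in *Eif4e*, 189 in *Eif4a1*, 68 in *Eif3f*, 43 in *Eef2* and 31 in *Eef2k*. A match is a description of the sequence, and binding by Myc, Max or any other factor was not measured.

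Genes that work with the translation factors were described from 8 lists, which were set with earlier results of these data known. For these lists the 52.7% of all detected genes below 0 serves as the reference. Release and recycling factors were the lowest, with a median log2 ratio of -0.24 and 4 of 5 detected genes below 0. *Etf1*, which recognizes stop codons, was at 11.15 after ND αCD4 and 11.45 after isotype control Ab, 1.23-fold lower. Its GTPase partner *Gspt1* was at 11.96 after ND αCD4 and 12.25 after isotype control Ab, 1.22-fold lower, and the recycling factor *Abce1* was 1.18-fold lower. Translation factors of mitochondria had a median of -0.20, with 6 of 8 detected genes below 0. *Tsfm* (1.33-fold lower), which recharges the mitochondrial elongation factor, *Mrrf* (1.31-fold lower), a ribosome recycling factor, and *Tufm* (1.19-fold lower), that elongation factor itself, had the largest log2 ratios in size. Enzymes that make hypusine on eIF5A and diphthamide on eEF2 had a median of -0.09, with 5 of 8 below 0 and the largest difference in *Dph6* at -0.17.

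Regulators of the cap complex and mTORC1 had a median of 0.03, and 8 of 12 detected genes were above 0, against 6170 of all 13222 detected genes. The exception in size was *Ddit4*, an inhibitor of mTORC1 induced by stress and glucocorticoids, at 11.06 in the ND αCD4 array and 11.77 in the isotype control array, 1.63-fold lower. *Rheb*, the GTPase that activates mTORC1, had a log2 ratio of 0.10, and *Mtor* itself one of 0.10. Among 7 kinases and phosphatases of eIF2 and their regulators the median was 0.02, with a wide spread. *Ppp1r15a*, the stress-induced subunit of the phosphatase that restores eIF2, was at 10.02 after ND αCD4 and 9.03 after isotype control Ab, 1.98-fold higher. *Eif2ak2*, the interferon-induced kinase PKR, was at 8.85 after ND αCD4 and 9.32 after isotype control Ab, 1.38-fold lower. The remaining lists were near 0. Helpers of scanning and reinitiation had a median of -0.06 (9 genes, with *Bzw2* lowest at -0.25), poly(A)-binding genes had one of -0.02 (4 genes, with *Pabpc1* at -0.10), and selenocysteine and rescue GTPase genes one of -0.01 (4 genes). Over all 8 lists, *Ddit4* and *Ppp1r15a* were the genes past 1.5-fold. In the same arrays the cell cycle genes were lower after ND αCD4 (median log2 ratio -1.24). The genes listed for handling stress were mostly higher (median 0.44). What part either has in the differences of these lists and of the translation factors was not tested.

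**Figure D5:**
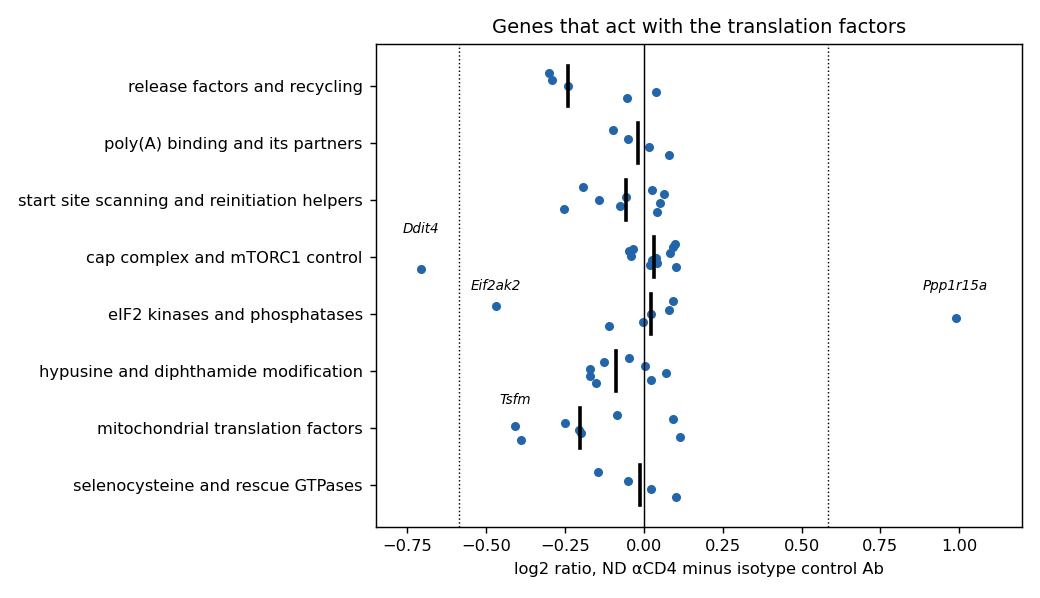
Log2 ratio (ND αCD4 minus isotype control, horizontal axis) of each detected gene of 8 lists that act with the translation factors, 1 point per gene, with list medians as black bars and 1.5-fold as dotted lines (vertical position within a list has no meaning). Release and mitochondrial factors have the lowest medians at -0.24 and -0.20, and Ddit4 and Ppp1r15a lie outside the dotted lines.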

How the data were processed

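The arrays were used as the authors deposited them, as log2 values per probe set (35557 probe sets, 1 array of ND αCD4 and 1 of isotype control Ab). Affymetrix Expression Console is named in the submitters' notes. Its version, background correction and normalization were not stated in the sources used, and the log2 scale was inferred from the range. The probe set numbers match an earlier version of the mouse gene array than the paper names. The labels give age and antibody under each other's heading.

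Probe sets with 1 gene symbol (21789) were kept. All 55 members matched the RefSeq gene table (GRCm38.p6) by gene identifier, with 0 symbols changed. RefSeq lists 10 further protein-coding genes that fit the rule and were not analysed here, among them *Eif1*, *Eif2s1*, *Eif4g1* and *Eef1g*, and 11 probe sets that list several symbols were left out. Detected members at least 1.2-fold apart are given with both values, with further members by subgroup. The symbol rule for members and the lists were set with earlier results of these data known. *Eef1akmt3* and *Eif4a3l1* were below background in both arrays. Size rules were 1.5-fold and, as a smaller one, 1.2-fold. Alternatives were centring, lowess (fraction 0.3, 3 iterations), quantile normalization, flooring, the mean of probe sets and other filters. Scripts were tested on simulated data. Software was matplotlib 3.10.9, statsmodels 0.14.6, pandas 2.3.3, numpy 2.4.6 and Python 3.11.15.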

Additional observations from a re-analysis of the deposited data

How the results depend on the processing

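No paired analysis was possible because each condition has 1 array. Across the other scalings (median centring, lowess, quantile), a floor at background, probe set means and other filters (none, or detection in both arrays), 38 to 43 members were below 0 and 4 to 6 were at least 1.2-fold lower, and 0 passed 1.5-fold. A 1.2-fold rule in place of 1.5-fold gave 5 lower members by its construction. The median of members lay between -0.10 and -0.07. All genes moved little with the scaling, with 49.5% below 0 when centred. The log2 ratios of 3 members changed sign between scalings (*Eef2kmt*, *Eif2b4* and *Eif4enif1*), each within 0.02 of 0. The log2 ratio of *Eif4e* was 0.15 on its own-chromosome probe set, an alternative chosen after seeing the data, and -0.05 as the mean of its probe sets. On the same terms *Eif5a* was at -0.27 on its own chromosome and *Eef2k* at 0.07 as a mean. No subgroup median moved by more than the SD between probe sets.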
